A study of Mus musculus with 11 samples.

Results

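Microglia carrying a constitutively active IKKβ were compared with microglia lacking Ikbkb, the gene for IKKβ, in the cortex of tau transgenic mice. The comparison took 2 ikbkbCA;P301S+ mice against 2 ikbkb-/-;P301S+ mice from a set of 11 single-nucleus RNA-seq libraries, 1 library per mouse. Microglia were nuclei with 300 to 8000 detected genes and at most 5% mitochondrial UMIs in which at least 3 of the 8 genes Inpp5d, Csf1r, Ly86, Siglech, Selplg, Ikzf1, Runx1 and Dock8 were detected and Slc17a7, a glutamate transporter of excitatory neurons, had at most 1 UMI. This gate kept 642 and 218 nuclei in deletion replicates 1 and 2, and 754 and 666 nuclei in active IKKβ replicates 1 and 2. These 2280 nuclei were part of 5049 that passed the gate among 112539 nuclei of all 11 libraries. The raw UMIs of a library's microglia were summed gene by gene, so that the mouse and not the nucleus was the replicate.

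All 4 mice carried the human P301S tau transgene of the PS19 line, which is driven by a prion promoter mainly in neurons, and all were labelled female. All 4 carried 1 Cx3cr1 allele replaced by a tamoxifen-inducible Cre recombinase, and tamoxifen was given in young adulthood. Cre under Cx3cr1 acts in microglia and also in macrophages at the borders of the brain. In the deletion mice Cre removed a loxP-flanked stretch of both Ikbkb alleles. In the active IKKβ mice Cre removed a stop cassette in front of an active IKK2 coding sequence inserted at the Rosa26 locus on both alleles, while the mouse's own Ikbkb stayed in place. The deletion mice came from the floxed breeding line and were 8.39 and 9.15 months old. The active IKKβ mice came from the other breeding line and were 10.85 and 9.8 months old. Breeding line therefore could not be told apart from genotype in a direct comparison, and both deletion mice were younger than both active IKKβ mice. The other 7 mice had intact Ikbkb and no Cre, and they were used for the estimate of spread and of the line difference. In the floxed line 2 of these were non-transgenic (both 10.03 months old) and 2 carried P301S (9.15 and 10.03 months), and in the active line 2 were non-transgenic (10.85 and 9.8 months) and 1 carried P301S (10.75 months).

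IKKβ is the catalytic subunit of the IκB kinase complex. In resting cells the inhibitory IκB proteins hold dimers of RelA, c-Rel and NF-κB1 in the cytoplasm, and once IKKβ phosphorylates an IκB it is degraded and the dimers enter the nucleus. Among the genes these dimers switch on are the inhibitors of the pathway itself, such as IκBα and the A20 partner ABIN-1, as well as adhesion molecules, costimulatory molecules and cytokines of activated microglia. A second branch of the pathway, through NIK, IKKα and RelB, is held down by the adaptors TRAF2 and TRAF3 together with the cIAP ubiquitin ligases.

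The 250 bases in front of each RefSeq gene start (build GRCm38.p6) were searched on both strands for the κB decamer consensus. Of the 66 genes that rose and had a promoter entry, 10 held a match (15.2%), beside 719 of 8250 tested genes (8.72%) and 1894 of 27025 promoters in the table (7.01%). None of the 8 genes that fell and had an entry held one. Overlapping matches, which a palindromic sequence gives on the 2 strands, were counted as 1 promoter. Stretches around the matches are shown for 4 regulators of the pathway described below, of which Nfkbia did not pass the test in all nuclei, with the matching bases in capitals, each written 5′ to 3′ on the strand of the gene.
Tnip1 (chr11:54962967-54963018, minus strand): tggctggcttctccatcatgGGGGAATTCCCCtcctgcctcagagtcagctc
Tank (chr2:61593005-61593054, plus strand): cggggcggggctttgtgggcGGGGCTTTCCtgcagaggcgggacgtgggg
Traf3 (chr12:111166340-111166369, plus strand): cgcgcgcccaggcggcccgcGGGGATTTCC
Nfkbia (chr12:55492648-55492696, minus strand): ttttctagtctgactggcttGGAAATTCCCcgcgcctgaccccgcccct
In Tnip1 the match began 58 bases before the start, in Tank 72, in Nfkbia 29 and in Traf3 10 bases before it. The start used for Tank lies inside the annotated span of that gene (chr2:61578585-61654171) and not at its first base. The same search found no match in the windows of Traf2, Birc3, Icam1 and Cd80, and Relb and Vcam1 had no entry. A match is a stretch of letters and no measured binding site.

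The summed microglial libraries held 1955586 and 810704 UMIs in the deletion mice and 2304502 and 2244504 UMIs in the active IKKβ mice. The median microglial nucleus had 2202 and 2524 UMIs against 2400 and 2567 UMIs. Microglial genes outside the gate (P2ry12, Cx3cr1, Tmem119, Apbb1ip, Tgfbr1, C1qa and C1qb) summed to between 3601 and 4527 CPM (a gene's UMIs scaled to the library's summed UMIs) in the 4 microglial libraries, against 25.1 to 32.8 CPM in excitatory neurons and 82.0 to 123 CPM in oligodendrocytes of the same mice. Excitatory neuron markers were also present, at 1433 and 1762 CPM in the deletion microglia and at 1034 and 1200 CPM in the active IKKβ microglia. Markers of border macrophages were at 309 and 409 CPM against 178 and 275 CPM, with 5 of 8 tested and none called, and their part in the results below was not tested. Nuclei called as doublets made up 8.72% to 14.6% of the gate's nuclei and held 26.4% to 34.7% of its UMIs in the 4 libraries. Libraries shared 21 to 44 barcodes per pair among all their nuclei, and at most 1 among microglia.

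The targeted gene did not separate the groups beyond the test. Ikbkb (ENSMUSG00000031537, chr8:22659212-22706589) stood at 92.3 and 107 CPM in the deletion microglia and at 135 and 126 CPM in the active IKKβ microglia. The active IKKβ mice were the higher, without overlap, but the difference did not pass the test (log2 fold change 0.40 ± 0.16 SE, edgeR quasi-likelihood adjusted p = 0.378). Over all 10714 genes tested, the 2 groups did not overlap at 4951. Counts over a whole gene cannot read the removal of a part of it, and whether transcripts of the inserted IKK2 sequence were counted at Ikbkb was not tested. The noncoding gene Gt(ROSA)26Sor at the insertion site was too low to test, with 9.91 and 8.83 CPM in the deletion mice and 1.30 and 0.440 CPM in the active IKKβ mice. The 3 active-line mice without Cre had 0 to 1.59 CPM at this gene and the 4 floxed-line mice without Cre had 4.97 to 12.2 CPM, so its level followed the breeding line. Cx3cr1, which lost 1 allele to Cre in all 4 mice, was at 572 and 496 CPM against 502 and 381 CPM (-0.28 ± 0.20, adjusted p = 0.650).

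Microglia made up 6.13% and 2.96% of nuclei in the deletion mice and 6.99% and 5.95% in the active IKKβ mice. The means were 4.55% ± 2.24 (SD, n = 2) and 6.47% ± 0.740 (SD, n = 2), a difference of 1.92 percentage points (two-sided exact permutation test, p = 0.667, with 0.333 the smallest p that 2 against 2 mice allow). Deletion replicate 2 had the fewest microglia, and the difference was 0.339 points without it and 3.51 points without deletion replicate 1. A share of nuclei that pass a gate reads both how many cells there were and how readily their nuclei were detected.

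Active IKKβ microglia differed from deletion microglia mostly upward. Of 10714 genes tested, 77 rose (0.719%) and 11 fell (0.103%) at an adjusted p below 0.05 and an absolute log2 fold change above 0.1 (edgeR quasi-likelihood test over all 11 mice). The genes that rose did so by a median of 1.71 on the log2 scale, from 0.75 for Dst, a cytoskeletal linker, to 7.72 for Ttn, which encodes the muscle protein titin. The genes that fell had a median of -2.10. The median over all genes tested was 0.0011, and 74 of the 77 rises were protein-coding genes. DESeq2 on the same sums called 63 of the 77 rises and all 11 falls, so some rises named below did not pass there.

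With the nuclei called as doublets left out, 184 of 9072 genes were higher (2.03%) and 256 lower (2.82%) in active IKKβ microglia, and these included 85 of the 88 genes above. Of the rises of this count, 3 of 184 (1.63%) had a higher CPM in excitatory neurons than in microglia of these mice. Beside this stood 7.08% of all 4743 genes with a positive change. The microglial level included the active IKKβ mice, in which a called rise is high by selection. The low share for rises therefore cannot show how far they came from neurons. Of the falls, 197 of 256 (77.0%) were higher in neurons by this measure, beside 43.4% of all 4329 genes with a negative change. In these doublet-free microglia the excitatory neuron markers still summed to 1023 and 1194 CPM in the deletion mice and to 579 and 681 CPM in the active IKKβ mice. Among the listed markers of other cell types, Cux2 and Grin2a of neurons and Slc1a2 and Slc4a4 of astrocytes were called lower. The part of neuronal and astrocytic RNA in the 256 falls was not tested. The microglial level also included the deletion mice, in which a called fall is high by selection. By the same measure in all nuclei, with this limit for rises and falls alike, none of the 77 rises and 11 falls was higher in neurons. Beside this stood 10.4% of all genes with a positive change and 41% of those with a negative one. These shares therefore cannot show how far the 77 rises or the 11 falls came from neurons. In deletion microglia alone a called rise could lie below neurons of the same mice. Ptpn9 was at 117 and 92.1 CPM there against 130 and 121 CPM in neurons, and such rises were not counted.

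Fewer genes passed once the breeding line or the age of the mice entered the fit. When the line was added as a covariate, with its effect estimated from the 7 mice with intact Ikbkb, 4 of 10714 genes passed (0.0373%). Among them were Rxrg and Tank, which were higher in active IKKβ mice, and Mrc2, which was lower. All 77 rises kept their sign under that covariate, with a median of 1.44, and 71 of them had an unadjusted p below 0.05. All 11 falls kept theirs too, with a median of -1.46. The covariate fit holds the same 4 mice in which these genes were chosen. Neither the kept signs nor the unadjusted p are therefore a separate test of them. With age as a covariate 7 genes passed, 6 of them among the 77 rises, whose median was then 1.48. With doublets left out and the line as covariate, 61 of 9072 genes passed (0.672%), 27 of them among the 88. The line itself, active minus floxed among mice with intact Ikbkb, differed at 4 of 10714 genes (0.0373%), which were Fcrls, Mid1, Rnf121 and Vav2, and at a median of 0.28 over the 77 rises.

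The count also rested on each of the 4 mice. It was 21 without deletion replicate 1, 21 without deletion replicate 2, 42 without active IKKβ replicate 1 and 47 without active IKKβ replicate 2, and in such a fit the remaining mouse of a group is assumed to vary like the other groups. Among doublet-free nuclei the 440 genes became 351 and 71 without deletion replicates 1 and 2, and 135 and 379 without active IKKβ replicates 1 and 2. Deletion replicate 2, with 218 microglia, was thus the mouse whose removal cost the most calls in the doublet-free count.

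**Figure D1:**
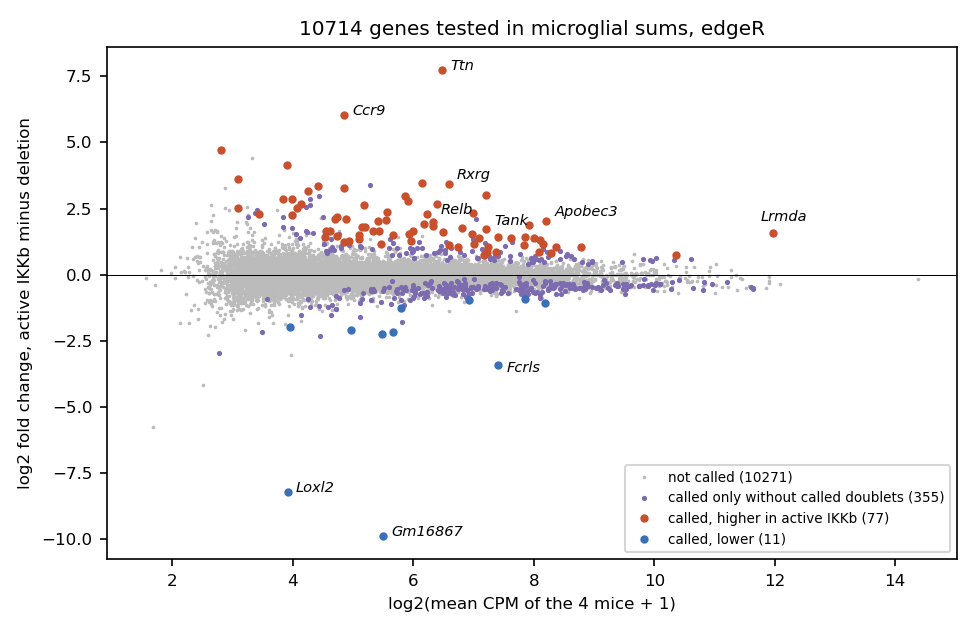
Each point is a gene tested in microglia, with log2 of its mean CPM over the 4 mice plus 1 on the horizontal axis and its fitted log2 fold change, active IKKβ minus deletion, on the vertical axis. The 77 genes that rose are red, the 11 that fell are blue, genes called only with doublets left out are purple and all others are grey. The purple points below 0 include Rbfox3 at -0.58 and Mrc2 at -2.33. The fitted values of Loxl2 and Gm16867, which had 0 UMIs in both active IKKβ mice, are not bounds.

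**Figure D2:**
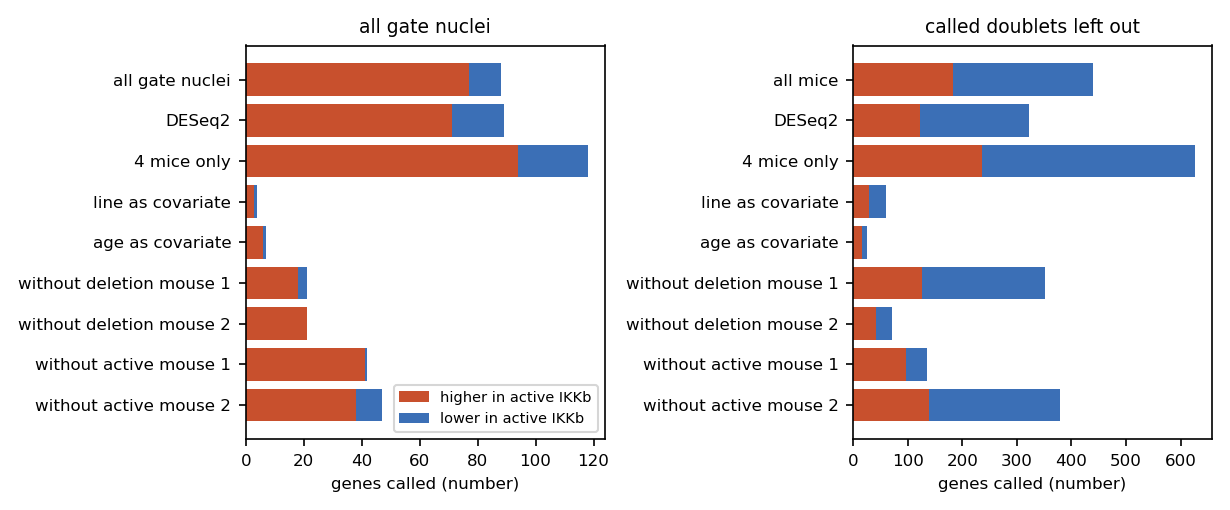
Number of genes called higher (red) and lower (blue) in active IKKβ microglia, with all gate nuclei on the left and doublets left out on the right, each under 9 fits and each panel on its own axis. The bars run from 4 genes with the breeding line as covariate in all nuclei to 626 genes in the doublet-free nuclei of the 4 mice alone.

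Of the subunits of the kinase complex and of NF-κB, Relb passed the test. Of 15 tested members, 1 rose and none fell, beside the 0.719% and 0.103% of all genes, and the median was 0.35, with 14 of 15 above 0 beside 5372 of 10714 genes. Relb (ENSMUSG00000002983, chr7:19606217-19629438), the partner of p52 in the NIK branch, was at 40.7 and 18.9 CPM in the deletion microglia and at 113 and 144 CPM in the active IKKβ microglia. The active IKKβ mice lay well above both deletion mice (1.98 ± 0.37, adjusted p = 0.0155), and the value was 1.48 with the line as covariate (adjusted p = 0.537). Nfkb1, the precursor of p50, was at 385 and 266 CPM against 505 and 475 CPM (0.58 ± 0.19, adjusted p = 0.248). Rela stood at 29.7 and 27.7 CPM against 31.2 and 42.7 CPM (0.35 ± 0.23, adjusted p = 0.629). The 3 kinase subunits Chuk, Ikbkb and Ikbkg did not pass. Ikbke, an inducible IKK-related kinase, was at 6.26 and 1.26 CPM against 21.2 and 53.2 CPM (2.99 ± 0.72, adjusted p = 0.0731), and it passed with doublets left out (3.18, adjusted p = 0.0138).

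Of 17 tested feedback regulators, 4 rose and none fell, beside the 0.719% and 0.103% of all genes, with a median of 0.72. With doublets left out 7 rose, beside 2.03% of all genes. Tnip1 (ENSMUSG00000020400, chr11:54910785-54962917) encodes ABIN-1, which binds polyubiquitin together with A20 and restrains the pathway. Its level was 29.2 and 17.7 CPM in the deletion microglia and 120 and 128 CPM in the active IKKβ microglia. Both active IKKβ mice were far above both deletion mice (2.31 ± 0.28, adjusted p = 0.00055), and the difference also passed with doublets left out and the line as covariate (1.98, adjusted p = 0.0148). It did not pass in all nuclei with the line (1.65, adjusted p = 0.106) or age (adjusted p = 0.110) as covariate. Birc3, which encodes the ubiquitin ligase cIAP2, was at 38.1 and 29.0 CPM against 134 and 117 CPM (1.86 ± 0.25, adjusted p = 0.00121). Traf3, the adaptor that holds NIK for degradation, was at 234 and 189 CPM against 445 and 445 CPM (1.06 ± 0.21, adjusted p = 0.022). Traf2, its partner, was at 17.2 and 17.7 CPM against 42.9 and 40.5 CPM (1.26 ± 0.28, adjusted p = 0.0451). With the line as covariate neither Traf3 (0.81, adjusted p = 0.515) nor Traf2 (0.84, adjusted p = 0.680) passed. Traf2 was also not called in DESeq2 (1.26, adjusted p = 0.175) or with at least 4 of the 8 gate genes required. For each of these 4 genes the groups did not overlap, beside 4951 of all 10714 genes tested, and the naming rule asked for no overlap. The deletion mice of Tnip1 lay further apart than those of Traf2.

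The classic inhibitor genes were sparse. Nfkbia, which encodes IκBα, was at 10.9 and 2.52 CPM against 31.2 and 42.2 CPM and did not pass (2.17 ± 0.55, adjusted p = 0.0908), but it did with doublets left out (2.27, adjusted p = 0.0169). Nfkbie, for IκBε, and Bcl3, a nuclear IκB, behaved likewise in the 2 counts, with 1.78 and 2.19 in all nuclei (adjusted p = 0.0877 and 0.0875) and 1.89 and 2.48 in doublet-free nuclei (adjusted p = 0.0224 and 0.0264). Tnfaip3, for A20, was at 6.26 and 12.6 CPM against 22.9 and 20.2 CPM and passed in neither count (1.34 ± 0.46, adjusted p = 0.260). With the line as covariate the value of Nfkbia was 1.14, and the line itself differed by 1.03 at this gene without passing.

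Tank (ENSMUSG00000064289, chr2:61578585-61654171) encodes an adaptor that binds TRAF proteins and the IKK-related kinases, and it was named by the rule for genes that also pass with the line as covariate. It was at 76.1 and 59.3 CPM in the deletion microglia and at 245 and 209 CPM in the active IKKβ microglia. The difference was 1.71 ± 0.18 (adjusted p = 0.000162), 1.61 with the line as covariate (adjusted p = 0.0262) and 1.49 with age (adjusted p = 0.0425). Tank kept its side of the threshold under all 33 alternatives run for named genes, and its adjusted p reached at most 0.0425.

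Among adhesion, costimulatory and survival genes downstream of NF-κB, 15 of the 46 listed were abundant enough to test. Of these, 3 rose and none fell, beside the 0.719% and 0.103% of all genes, and the median was 0.56. In doublet-free nuclei 5 of 13 tested rose, beside 2.03% of all genes. Icam1, an adhesion molecule for leukocyte integrins, was at 32.8 and 26.5 CPM against 88.8 and 103 CPM (1.66 ± 0.36, adjusted p = 0.041), and its value with the line as covariate was 0.78 (adjusted p = 0.689), with a line difference of 0.88 that did not pass (adjusted p = 0.325). Vcam1, another such molecule, was low in all, at 4.17 and 1.26 CPM against 26.4 and 21.1 CPM (2.85 ± 0.54, adjusted p = 0.0179). It did not pass with the line as covariate (3.22, adjusted p = 0.321). Cd80, a costimulatory ligand for T cells, was at 25.0 and 39.1 CPM against 88.8 and 87.5 CPM (1.53 ± 0.28, adjusted p = 0.0155). For all 3 the active IKKβ mice were above both deletion mice, beside groups without overlap at 4951 of all 10714 genes tested. The other 12 did not pass, among them the cytokine Il1a (18.8 and 12.6 CPM against 46.3 and 24.6 CPM, adjusted p = 0.265) and the survival gene Bcl2l1 (222 and 192 CPM against 193 and 190 CPM, adjusted p = 0.833). Cxcl16, a chemokine, and Cflar, an inhibitor of caspase 8, passed in doublet-free nuclei (2.52, adjusted p = 0.0158, and 0.57, adjusted p = 0.0328). Of 27 tested receptors and adaptors upstream of IKK none passed, with a median of 0.32, and Alpk1 and Malt1 did with doublets left out (1.10, adjusted p = 0.0187, and 0.77, adjusted p = 0.032).

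Relb, Traf2, Traf3, Icam1, Vcam1 and Cd80 were no longer called when single mice were left out, while Tnip1, Birc3 and Tank were called without any one of the 11. The adjusted p reached 0.234 for Relb, 0.353 for Traf3, 0.363 for Icam1 and 0.182 for Vcam1 without deletion replicate 2, and 0.327 for Traf2 and 0.290 for Cd80 without deletion replicate 1. Relb remained called without active IKKβ replicate 1 but not without active IKKβ replicate 2 (adjusted p = 0.0868). Traf2, Traf3, Icam1 and Cd80 lost their call also without either active IKKβ mouse, and so did Vcam1 (adjusted p = 0.0516 without active IKKβ replicate 2). Traf2 also lost it without any one of the 4 non-transgenic mice (adjusted p = 0.0503 to 0.0655), and Icam1 without the first non-transgenic mouse of either line or the second floxed-line P301S mouse with intact Ikbkb (adjusted p = 0.0517 to 0.0690).

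**Figure D3:**
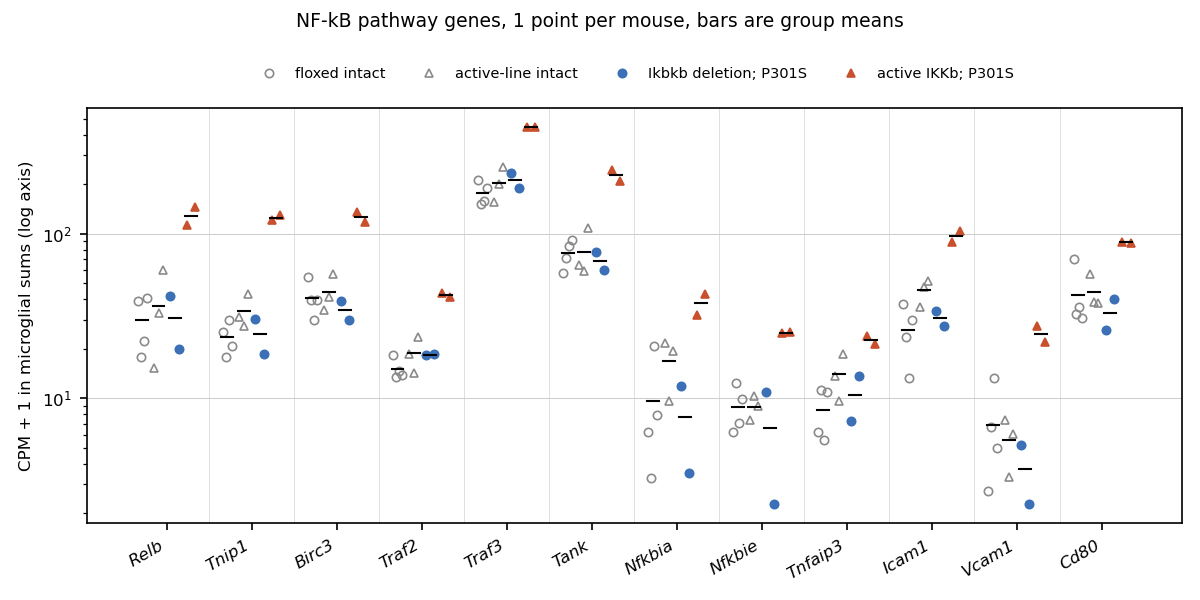
Level of genes of the NF-κB pathway in microglia of each mouse, as CPM plus 1 on a log axis, with 1 point per mouse and a bar at each group mean. Grey open symbols are mice with intact Ikbkb in the floxed and the active line, blue circles the 2 deletion mice and red triangles the 2 active IKKβ mice. For Relb, Tnip1, Birc3 and Tank the active IKKβ mice, at 113 to 245 CPM, lie above every other mouse shown for that gene.

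The largest rises lay outside these lists. Ttn (ENSMUSG00000051747, chr2:76703980-76982547) had 2 and 0 UMIs in the deletion microglia and 275 and 524 UMIs in the active IKKβ microglia. Relative to the scaled library sizes used for CPM this is a ratio of 236 (95% exact counting interval 65.2 to 1950). In doublet-free nuclei, where the deletion mice had 0 UMIs, Ttn was at least 148-fold higher against a floor of 3 counts over the group. Ccr9, a chemokine receptor, had 1 and 1 UMIs against 93 and 158 UMIs, a ratio of 74.2 (20.3 to 616), and with the line as covariate its fitted change went from 6.04 to 4.57 (adjusted p = 0.321). Ccr9 lies on chromosome 9 within 5 Mb of Cx3cr1, where 1 of 58 tested genes was called (1.72%), beside the 0.719% and 0.103% of all genes. Within 10 Mb of Gt(ROSA)26Sor 1 of 98 tested genes was called (1.02%), Apobec1. These intervals cover counting error only.

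Rxrg (ENSMUSG00000015843, chr1:167598384-167639623), a retinoid X receptor, was the 1 called among 37 tested identity transcription factors, beside 0.719% of all genes, and Bach2 joined it with doublets left out (0.61, adjusted p = 0.0337). Rxrg was at 13.6 and 20.2 CPM against 174 and 172 CPM. This was a rise of 3.44 ± 0.29 (adjusted p = 1.42e-05) and of 2.72 with the line as covariate (adjusted p = 0.0255), and in doublet-free nuclei with that covariate it did not pass (2.46, adjusted p = 0.0542). Although on the identity list, Rxrg was low in microglia without active IKKβ, and none of the 7 mice with intact Ikbkb exceeded 30.1 CPM. Ddo, for the peroxisomal D-aspartate oxidase, was at 14.6 and 6.31 CPM against 121 and 138 CPM (3.45 ± 0.42, adjusted p = 0.00055), and its value with the line as covariate was 2.38 (adjusted p = 0.424). Tk1, the thymidine kinase of dividing cells, was at 2.09 and 0 CPM against 29.9 and 23.8 CPM (4.13 ± 0.62, adjusted p = 0.00287).

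Other genes rose as well and are named here after their values were seen. Lrmda, which takes part in melanosome formation in pigment cells, was the most abundant rise, at 2085 and 1954 CPM against 5999 and 6008 CPM (1.57 ± 0.23, adjusted p = 0.00229). Apobec3, a cytidine deaminase that restricts retroviruses, was at 128 and 98.4 CPM against 471 and 480 CPM (2.05 ± 0.25, adjusted p = 0.00055). Aoah, the enzyme that removes acyl chains from endotoxin, was at 26.6 and 40.4 CPM against 251 and 268 CPM (3.03 ± 0.45, adjusted p = 0.00281). In each of the 3 the 2 mice of a group were close and the groups were far apart. Kynu and Haao, enzymes of tryptophan breakdown through kynurenine, rose by 3.27 and 2.26 (adjusted p = 0.00937 and 0.0388). Casp4, the caspase that senses cytosolic endotoxin and the 1 call among 20 tested genes of cell death and cell cycle, beside 0.719% of all genes, was at 26.1 and 11.4 CPM against 73.2 and 58.5 CPM (1.67 ± 0.36, adjusted p = 0.0396). Slamf8, Cd300lf and the interleukin 12 receptor chain Il12rb2 rose by 3.36, 3.17 and 2.86 (adjusted p = 0.0018, 0.00829 and 0.025). Tnfsf13b, the B cell survival factor BAFF, and Icosl, a costimulatory ligand, rose by 1.65 and 1.33 (adjusted p = 0.013 and 0.0166), and Cnr2, the peripheral cannabinoid receptor, by 1.47 (adjusted p = 0.0152). Cd274 and Havcr2, which encode the checkpoint molecules PD-L1 and TIM-3, rose by 1.43 and 0.76 (adjusted p = 0.0423 and 0.0254). Nfe2l2, the regulator of the oxidative stress response, rose by 1.04 (adjusted p = 0.0183), and Arhgap15, a GTPase regulator of the motility list, by 1.41 (adjusted p = 0.0359).

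The rises could be followed to single nuclei. With each nucleus thinned to 1000 UMIs, which left out 0 to 3 microglia per mouse, Lrmda was detected in 75.7% and 79.5% of deletion microglia and in 96.8% and 94.3% of active IKKβ microglia (unthinned, 89.4% and 95.4% against 99.5% and 98.0%). In thinned oligodendrocytes Lrmda was detected in 27.6% and 23.6% against 36.9% and 30.1%, and in thinned neurons in 1.73% to 2.64%. Rxrg went from 0.626% and 0.465% to 16.8% and 18.7% (unthinned, 3.43% and 3.21% against 36.7% and 40.2%). Its share in deletion microglia was no higher than the 0.508% to 0.820% of excitatory neurons thinned in the same way, whose median depth of 13321 to 17757 UMIs far exceeded the 2202 to 2567 UMIs of microglia. Apobec3 was detected in 13.8% and 12.6% against 38.6% and 41.9% (unthinned, 28.5% and 30.3% against 69.4% and 72.2%), and in at most 0.248% of thinned neurons. Tank was detected in 6.57% and 6.05% against 22.7% and 21.4% (unthinned, 16.7% and 17.0% against 47.9% and 44.6%). Thinned neurons were at 2.47% to 3.73% for Tank, and thinned oligodendrocytes at 5.89% and 6.27% against 7.65% and 7.83%. Ttn was detected in no thinned deletion microglia and in 8.36% and 16.7% of thinned active IKKβ microglia (unthinned, 0.312% and 0% against 15.8% and 27.2%). Thinned neurons were at 0.273% and 0.0849% for Ttn in the deletion mice against 0.799% and 0.496% in the active IKKβ mice. Thinned oligodendrocytes were at 0.108% and 0.0836% against 0.244% and 0.188%. In summed neurons the difference of Ttn did not pass (1.53, edgeR adjusted p = 0.562). The rise of Rxrg, Apobec3 and Tank was thus spread over many nuclei of both active IKKβ mice, whereas for Ttn the 2 active IKKβ mice lay apart.

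**Figure D4:**
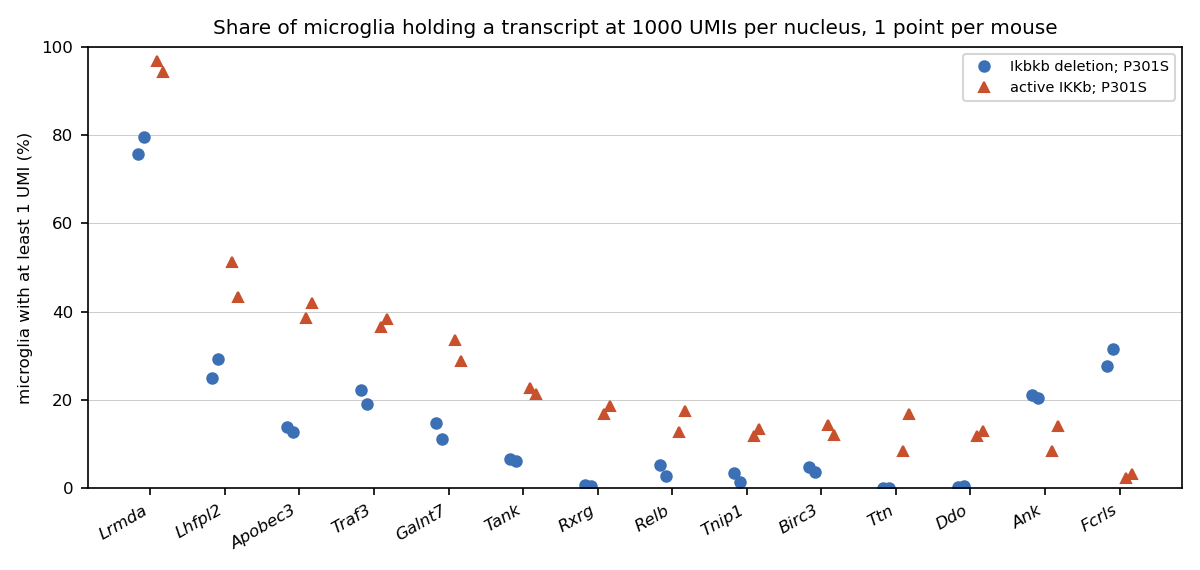
Share of microglia with at least 1 UMI of a gene, in percent, after each nucleus was thinned to 1000 UMIs, with 1 point per mouse for the 2 deletion mice (blue circles) and the 2 active IKKβ mice (red triangles). The genes shown were picked for their differences. The groups do not overlap for any of them, from Lrmda at 75.7% to 96.8% down to Ttn at 0% to 16.7%. The deletion mice are the higher for Ank and Fcrls.

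**Figure D5:**
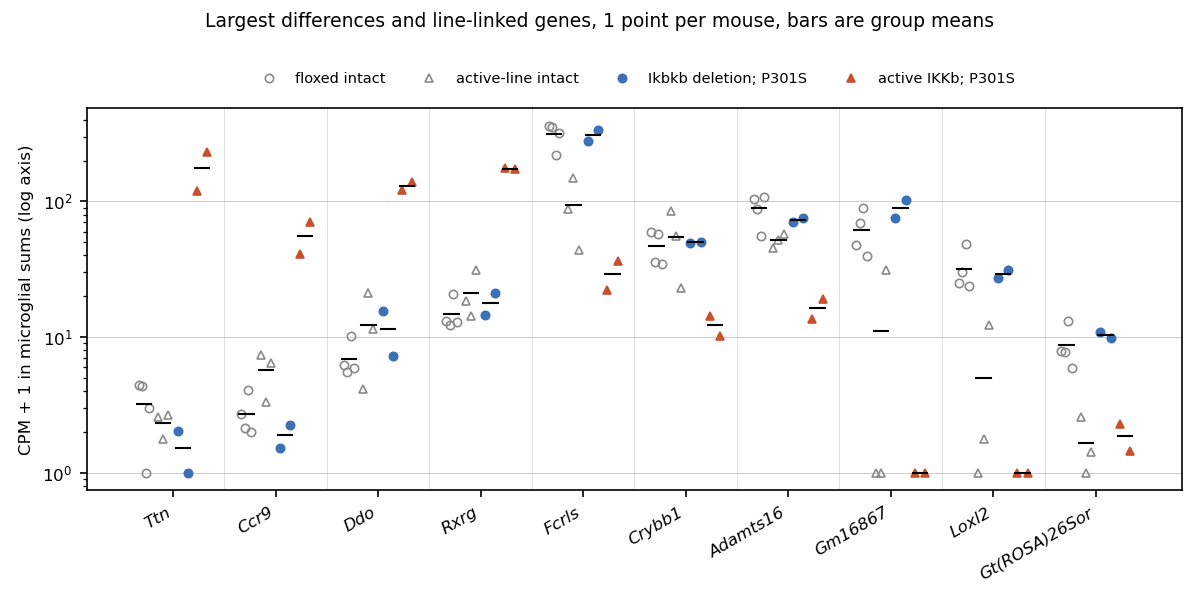
Level in microglia of each mouse, as CPM plus 1 on a log axis so that 0 CPM sits at 1, for genes with the largest differences and genes lower in the active line, with 1 point per mouse and a bar at each group mean. Rxrg is at 174 and 172 CPM in the active IKKβ mice and at 11.3 to 30.1 CPM in all others, while Fcrls, Loxl2, Gm16867 and Gt(ROSA)26Sor are also lower in the active-line than in the floxed-line mice with intact Ikbkb.

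Fewer genes fell, and Gm16867, Loxl2 and Fcrls were also lower in active-line than in floxed-line mice with intact Ikbkb, a line difference that passed the test for Fcrls. Gm16867 (ENSMUSG00000093954, chr14:69363504-69503362) and Loxl2 (ENSMUSG00000034205, chr14:69609068-69695834), a lysyl oxidase-like enzyme, lie close together on chromosome 14. Gm16867 was at 75.1 and 102 CPM in the deletion microglia and had no UMI in either active IKKβ mouse, and Loxl2 was at 26.1 and 30.3 CPM and likewise had none. Against a floor of 3 counts over the 2 active IKKβ mice, Gm16867 was at least 135-fold lower and Loxl2 at least 43.0-fold lower. The 2 active-line non-transgenic mice, which had no Cre, were at 0 and 0 CPM of Gm16867 and at 0 and 0.778 CPM of Loxl2. The active-line P301S mouse with intact Ikbkb was at 30.1 CPM of Gm16867 and 11.3 CPM of Loxl2. Floxed-line mice with intact Ikbkb were higher, at 38.7 to 88.5 CPM and 22.8 to 47.3 CPM. That line difference did not pass (adjusted p = 0.283 for Gm16867 and 0.132 for Loxl2). The covariate fit takes the line difference as the same in non-transgenic and P301S mice. With the line as covariate the fitted change of Gm16867 went from -9.86 to -7.69 (adjusted p = 0.321) and that of Loxl2 from -8.22 to -5.77 (adjusted p = 0.384), and in doublet-free nuclei with the line as covariate Gm16867 was called (-7.33, adjusted p = 0.0417) and Loxl2 was not (adjusted p = 0.120). In excitatory neurons Gm16867 was at 29.5 and 33.8 CPM against 0.101 and 0.0511 CPM and Loxl2 at 11.9 and 12.5 CPM against 0.151 and 0.204 CPM, and neither difference passed there (adjusted p = 0.562 and 0.649).

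Fcrls (ENSMUSG00000015852, chr3:87250758-87263738), an Fc receptor-like gene of homeostatic mouse microglia, was at 279 and 337 CPM against 21.2 and 35.6 CPM (-3.43 ± 0.72, adjusted p = 0.0342). It was also lower in the active line without Cre, with 43.1 to 148 CPM in active-line and 220 to 360 CPM in floxed-line mice with intact Ikbkb (-1.97 ± 0.25, adjusted p = 0.00963), and the difference with the line as covariate was -1.46 (adjusted p = 0.384). Crybb1, a crystallin gene of homeostatic microglia, was at 48.5 and 49.2 CPM against 13.4 and 9.24 CPM (-2.10 ± 0.40, adjusted p = 0.0179). Its value with the line as covariate was -2.03 (adjusted p = 0.321). Among mice with intact Ikbkb, Crybb1 was at 33.8 to 58.9 CPM in the floxed line. In the active line it was at 84.4 and 54.4 CPM in the non-transgenic mice and at 22.2 CPM in the P301S mouse. Adamts16, a secreted metalloprotease, was at 69.9 and 74.4 CPM against 12.6 and 18.0 CPM (-2.22 ± 0.38, adjusted p = 0.00929), and with the line as covariate it was -1.46 in all nuclei (adjusted p = 0.279) and -1.52 in doublet-free nuclei (adjusted p = 0.0424). These 3 and the 2 genes of chromosome 14 lost their calls when single mice were left out. The adjusted p reached 0.244 for Fcrls and 0.197 for Loxl2 and 0.122 for Gm16867 without active IKKβ replicate 1, and 0.167 for Crybb1 and 0.0985 for Adamts16 without deletion replicate 1. Loxl2 was also not called without the first non-transgenic floxed-line mouse (adjusted p = 0.0592) or the second floxed-line P301S mouse with intact Ikbkb (adjusted p = 0.0577).

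Of the remaining falls, Lrp1, an endocytic receptor that also takes up tau, was at 360 and 429 CPM against 188 and 190 CPM (-1.05 ± 0.18, adjusted p = 0.00829). Gas6, a ligand of the TAM receptors Mertk and Axl and the 1 call in all nuclei among 17 tested genes of the CSF1, IL34 and TAM axis, beside 0.103% of all genes lower, was at 87.6 and 64.3 CPM against 34.2 and 30.8 CPM (-1.25 ± 0.27, adjusted p = 0.0409). Csf2rb of that axis was higher with doublets left out (1.05, adjusted p = 0.0118). Gas6 lies on chromosome 8 within 10 Mb of Ikbkb and was the 1 called among 67 tested genes there (1.49%), beside the 0.719% higher and 0.103% lower of all genes. Myo18b, Abcg3, Galnt10 and Arsb made up the rest, with changes of -2.16, -1.96, -0.96 and -0.91. Mrc2, a collagen receptor, did not pass in all nuclei (-2.33, adjusted p = 0.0727) but did with the line as covariate (-3.46, adjusted p = 0.0303), with doublets left out (-2.43, adjusted p = 0.0326) and in DESeq2 (-2.26, adjusted p = 0.0254), and its deletion mice differed from each other, at 51.1 and 17.7 CPM against 7.36 and 7.48 CPM.

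Of 31 tested genes of homeostatic microglia, Fcrls and Crybb1 fell and the other 29 did not pass, beside 0.103% of all genes, and the median was -0.24. With the line as covariate the median was -0.0022, and with doublets left out Lpcat2, a lysophospholipid acyltransferase, was higher (0.52, adjusted p = 0.0395). P2ry12, the ADP receptor of surveying microglia, was at 562 and 644 CPM against 664 and 575 CPM, with the groups overlapping (0.04 ± 0.24, adjusted p = 0.972). Tmem119 was at 73.0 and 127 CPM against 136 and 95.9 CPM and overlapped too (0.26 ± 0.24, adjusted p = 0.728).

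Of 38 listed genes of disease-associated microglia, 25 were tested and none passed, with a median of 0.06. The others were not tested, and Clec7a was not found under that name in the matrices. Apoe, the lipid carrier, was at 284 and 159 CPM against 114 and 311 CPM, so that the 2 mice of each group differed more than the groups did (-0.09 ± 0.51, adjusted p = 0.972). With doublets left out, Cybb, an NADPH oxidase subunit, and Cd52 were higher (2.91, adjusted p = 0.0319, and 2.41, adjusted p = 0.0266) and Ank, a pyrophosphate exporter, was lower (-1.29, adjusted p = 0.00372). Ank was at 328 and 250 CPM against 172 and 168 CPM in all nuclei and also passed in doublet-free nuclei with the line as covariate (-1.67, adjusted p = 0.00613). In doublet-free nuclei Ank was at 303 and 222 CPM against 93.0 and 125 CPM, below the 377 to 416 CPM of neurons and the 430 to 519 CPM of oligodendrocytes of these mice, and the neuron markers were also higher in the deletion microglia (1023 and 1194 against 579 and 681 CPM). The part of RNA from other cells in the difference of Ank was not tested.

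Antigen presentation had a median of 0.86 over 20 tested genes, and none passed. B2m, the light chain of class I molecules, was at 61.0 and 46.7 CPM against 145 and 116 CPM (1.24 ± 0.32, adjusted p = 0.105), and H2-Q4, a class I heavy chain, at 6.78 and 0 CPM against 34.2 and 33.0 CPM (2.85 ± 0.71, adjusted p = 0.0827). Both had active IKKβ mice above deletion mice, beside groups without overlap at 4951 of all 10714 genes tested. Both passed with doublets left out (adjusted p = 0.0138 for each). With the line as covariate the median of this list was 0.20. None passed of 23 tested interferon response genes (44 listed) or 10 complement genes (20 listed). Nor did any of 25 tested genes of TGF-β signalling (28 listed), 38 of lysosome and autophagy (42 listed) or 39 of exocytosis (44 listed). With doublets left out, Tgif1 of the TGF-β list and Ctsh, a lysosomal cathepsin, were higher (2.29, adjusted p = 0.0237, and 0.98, adjusted p = 0.0242), and Syt7 of the exocytosis list was lower (-0.98, adjusted p = 0.0144). The motility list had 2 rises among 32 tested genes, Ccr9 and Arhgap15, and no fall, beside the 0.719% and 0.103% of all genes. With doublets left out it had 3 rises, with Arhgap24 the third, and 2 falls, Coro2a and Vcl (-1.34, adjusted p = 0.00436, and -1.03, adjusted p = 0.0346), beside the 2.03% and 2.82% of all genes, and Coro2a also passed there with the line as covariate.

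The mice with intact Ikbkb place these differences. Over the 77 rises the median was 1.29 for active IKKβ minus intact P301S mice and -0.41 for deletion minus intact P301S mice. Both comparisons share the 3 intact P301S mice, and each shares a group with the comparison that chose the genes, so the values are given side by side and without a test. Of the 3 intact P301S mice, 2 came from the floxed line, as the deletion mice did. The intact P301S mean lay nearer to the deletion mice at 68 of the 77 genes. The single active-line P301S mouse did so at 48 and the active-line non-transgenic mean at 70. Over the 11 falls the medians were -1.57 and 0.40, and these 3 counts were 10, 7 and 8. The counts were not made over all genes tested.

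Few genes passed in excitatory neurons and oligodendrocytes of the same mice. In excitatory neurons 0 of 15776 genes passed (0.0%) in edgeR, with 816 at an unadjusted p below 0.05, and DESeq2 called 9. Of the 77 microglial rises, 57 were tested in neurons, with a median of 0.06, and 5 had an unadjusted p below 0.05. In oligodendrocytes 2 of 14173 genes passed (0.0141%), with 1231 at an unadjusted p below 0.05, and neither was among the 88 genes. There 49 of the 77 rises were tested, with a median of 0.08, and 10 had an unadjusted p below 0.05. Of the 11 falls, 8 were tested in neurons with a median of -0.47 and 7 in oligodendrocytes with a median of -0.60, and 4 had an unadjusted p below 0.05 in each.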

How the data were processed

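Nuclei were isolated from frozen mouse cortex and sequenced with a 3′ single-cell kit, 1 library per mouse. The deposited matrices hold raw UMI counts per gene and nucleus, made by the authors against mm10. The submitters' processing notes name Cell Ranger 3.1.0 and Seurat 3.0. Of 31053 genes, 31011 matched the GENCODE M21 annotation. UMIs were summed per mouse over gated nuclei and tested with edgeR 4.0.16 (glmQLFit and glmQLFTest, TMM, filterByExpr) over all 11 mice with 1 term per genotype, Benjamini-Hochberg adjustment over all genes tested, and the limits of 0.05 and 0.1 on adjusted p and absolute log2 fold change. SE is the fold change divided by the root of its F statistic. The main gate kept doublets. The alternative without them called doublets per library from simulated doublets. DESeq2 1.42.0, RLE scaling, other gates and covariates, and leaving out each mouse were alternatives. Excitatory neurons had at least 3 Slc17a7 UMIs and oligodendrocytes at least 3 of 7 myelin genes. Scripts were tested on simulated counts.

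Genes were named by a rule: called genes whose groups do not overlap and reach a mean of 20 CPM, as the largest changes with and without the line as covariate (up to 12 and 4 in each direction), every called member of the pathway lists, and fixed pathway and marker genes. Genes outside this rule were chosen after their values were seen. The members and lists were chosen with earlier results of these data known. Libraries are separate mice. The mice share replicate numbers by title only (correlation of deviations 0.0086), so no pairing was used. Some genes are not reported here.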

Additional observations from a re-analysis of the deposited data

How the results depend on the processing

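The count of 88 genes in microglia became 357 without a filter on low counts, 135 with 1 term per genotype and line, 4 with the line and 7 with age as covariate, and 440 without called doublets. Leaving out 1 mouse gave 21 to 120, with 21 without either deletion mouse, 42 without active IKKβ replicate 1 and 47 without active IKKβ replicate 2. Chosen after seeing the data, doublet-free nuclei gave 323 genes with DESeq2, 626 in the 4 mice alone and 25 with age as covariate, and 71 to 379 when 1 of the 4 mice was left out, the lowest without deletion replicate 2 and 135 without active IKKβ replicate 1. Replicate numbers did not pair the mice; a fit with the replicate number as block gave 105 genes, and 470 in doublet-free nuclei. In neurons 0 genes became 9 with DESeq2. In oligodendrocytes 2 became 1 with the line as covariate and 16 with DESeq2. The line difference of 4 genes became 12 in doublet-free nuclei. The causes of these moves were not tested, except that fits without a mouse or in fewer nuclei hold less data. For the 27 named genes tested, 33 alternatives gave 891 values, of which 756 stayed on their side of the threshold, 127 lost the call, 8 gained it and 0 reversed a call. With 2 mice per group, 218 microglia in deletion replicate 2 and median nuclei of 2202 to 2567 UMIs, many genes of a few CPM were too low to test, and in the direct comparison of 2 against 2 mice line and age cannot be told apart from genotype.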

Other observations

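Both genes called in oligodendrocytes lie on chromosome 11, 2.03 Mb apart. Shmt1, a serine hydroxymethyltransferase of the cytosol, was at 4.81 and 4.46 CPM in the deletion mice and at 23.6 and 22.3 CPM in the active IKKβ mice (2.30 ± 0.23, edgeR adjusted p = 0.000821), and no other mouse exceeded 7.22 CPM. Trim16 had 3 UMIs over the deletion mice and 131 over the active IKKβ mice, a ratio of 35.6 (95% exact counting interval 11.9 to 175). Shmt1 was at 4.69 and 7.57 against 15.2 and 13.6 CPM in microglia (1.32, adjusted p = 0.253) and at 1.03 and 0.798 against 1.61 and 1.64 CPM in neurons (0.84, adjusted p = 0.944), higher without overlap in both but not called. In microglia the groups did not overlap at 4951 of all 10714 genes tested. Trim16 was too low to be tested in microglia and neurons.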
